A study of Mus musculus with 12 samples.

Results

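The tumour necrosis factor (TNF) superfamily ligands and receptors were examined in mouse T cells profiled on Affymetrix whole-transcript arrays. The members were the genes whose symbol is Tnfsf or Tnfrsf followed by a digit, together with Tnf, Lta, Ltb, Ltbr, Fas, Fasl, Cd27, Cd70, Cd40, Cd40lg and Ngfr, on probe sets that carry a single gene symbol. The rule goes by symbol and uses no measured value, though it was set with earlier results of these data known. It gave 40 genes, 15 ligands and 25 receptors, out of 22180 named genes, and each member had 1 probe set. Of the 40, 38 lay above the dim level, a log2 value of 3.45, on at least 2 arrays and were tested among 16667 genes. The ligands Cd70, the partner of CD27, and Tnfsf13b, the B cell survival factor BAFF, lay above it on 0 arrays and were not tested.

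Superfamily ligands are mostly cell-surface proteins, some of them shed in soluble form, that cluster receptors on neighbouring cells. The receptors carry no enzyme of their own: some recruit TRAF adaptors and switch on NF-kB, and others hold a death domain through which they can start apoptosis. On T cells the family supplies costimulation through CD27, OX40, GITR and CD137, kills through Fas ligand and TRAIL, and shapes lymphoid tissue through TNF, the lymphotoxins and RANK ligand.

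The 12 arrays fell into 5 groups: iNKT17 cells of BALB/c mice (3 arrays), ROR- cells of BALB/c mice (3), iNKT17 cells of B6 mice (2), gamma-delta 17 cells of B6 mice (2) and ROR- cells of B6 mice (2). Invariant natural killer T (iNKT) cells are T cells with a semi-invariant antigen receptor for lipids, and iNKT17 cells are those that make interleukin 17, while ROR- is the labels' own name for the cells set against them. Gamma-delta 17 cells are interleukin 17-making T cells with a gamma-delta receptor. The labels mark growth and treatment as not relevant and name no organ, age, allele, reporter or sorting scheme, and no number of animals. Nothing in them makes the replicates separate animals, so p-values cover only how these samples vary, and that variation may be technical.

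Type 17 marker genes followed the labels, and type 1 marker genes, which no label names, were on average higher in ROR- cells, with 2 arrays standing apart. The markers listed for iNKT cells were on average lower in the cells labelled iNKT17 than in ROR- cells. The mean log2 level of 5 T cell markers was 10.47 to 10.96 on all arrays, that of 5 B cell markers 3.35 to 3.75 and that of 6 epithelial and stromal markers 4.69 to 4.96. The mean of 5 type 17 markers was 8.14 to 8.51 in BALB/c iNKT17, 7.92 to 8.31 in B6 iNKT17 and 8.59 to 9.08 in gamma-delta 17 cells, against 4.42 to 6.02 in BALB/c ROR- and 4.37 to 4.73 in B6 ROR- cells. The mean of 4 type 1 and cytotoxic markers (Tbx21, Klrd1, Nkg7 and Klrb1c) was 4.72 to 5.01 in BALB/c iNKT17, 4.87 to 4.92 in B6 iNKT17 and 4.89 to 6.33 in gamma-delta 17 cells, against 8.11 to 8.35 in BALB/c ROR- and 9.01 to 9.11 in B6 ROR- cells, and all 4 fell in iNKT17 cells of B6 and in gamma-delta 17 cells. In BALB/c iNKT17 cells 3 fell, and Klrb1c differed by -0.26 ± 0.30 log2 units (adjusted p = 0.731). The mean of 3 iNKT markers (Zbtb16, Cd4 and Slamf6) was 5.59 to 5.74 in BALB/c iNKT17, 5.02 to 5.20 in B6 iNKT17 and 4.79 to 5.74 in gamma-delta 17 cells, against 8.53 to 8.71 in BALB/c ROR- and 7.51 to 7.72 in B6 ROR- cells. Over both strains Cd4 and Slamf6 fell in iNKT17 cells, at -3.81 ± 0.12 and -3.99 ± 0.38 log2 units (SE, adjusted p = 1.31e-08 and 2.31e-05). Zbtb16, whose product PLZF directs iNKT cell development, had 7.89 to 9.07 on the iNKT17 arrays, against 8.61 to 9.27 on the ROR- arrays, and did not pass, at -0.37 ± 0.13 (adjusted p = 0.0904). The mean of 3 gamma-delta markers (Blk, Cd163l1 and Sox13) was 7.70 to 8.11 in BALB/c iNKT17, 7.29 to 7.53 in B6 iNKT17 and 8.47 to 9.67 in gamma-delta 17 cells, against 5.46 to 6.37 in BALB/c ROR- and 5.49 to 5.66 in B6 ROR- cells. All 3 rose in iNKT17 cells over both strains, by 0.63 to 4.27 log2 units, and in BALB/c alone, while 1 of the 3 passed in B6 alone. Blk had 9.33 to 10.58 on the iNKT17 arrays and 9.23 and 10.39 on the gamma-delta 17 arrays. The part of these 4 marker lists in the results was not tested. B6 gamma-delta 17 replicate 1 had the neutrophil gene S100a8 at 9.30, while the other 11 arrays had 2.14 to 2.44, and its mean over 3 neutrophil markers was 6.07, against 3.20 in replicate 2. Gamma-delta 17 replicate 1 also had Klrd1 at 6.03 and Nkg7 at 8.49, while replicate 2 had 3.69 and 6.21. BALB/c ROR- replicate 2 had the type 17 genes Il23r at 7.003 and Il1r1 at 7.004, while the other BALB/c ROR- arrays had Il23r at 3.05 and 3.37 and Il1r1 at 4.97 and 5.25. Member calls that rest on these arrays are given with and without them. Marker means and most other values are given with all arrays only. In bulk samples of this kind, a lower share of cells that express a gene and less of its RNA in each cell cannot be told apart.

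The first comparison set iNKT17 cells against ROR- cells of the same strain, as the mean of both strains. TNF and lymphotoxin alpha rose in iNKT17 cells, and the death receptor gene Tnfrsf21 rose with them. Fas ligand, TRAIL and the costimulatory receptors CD27, OX40 and GITR fell. Of the 38 members tested, 15 (39.5%) passed an adjusted p of 0.05, 6 of them higher and 9 lower in iNKT17 cells. Of all genes tested 12.3% passed, 6.49% higher and 5.81% lower. By type, 3 ligands were higher and 3 lower out of 13 tested, and 3 receptors were higher and 6 lower out of 25. At least a 2-fold difference beside the threshold was found for 8 members (3.13% of all genes): Tnf, Lta and Tnfrsf21 higher, and Fasl, Tnfsf10, Cd27, Tnfrsf4 and Tnfrsf18 lower. The median difference of the tested members was -0.06 log2 units and that of all genes -0.00354. Without BALB/c ROR- replicate 2, 14 members passed, all but Tnfsf11, and 1900 of all genes did, against 2051 with all arrays. Leaving out each array in turn, 11 to 17 passed.

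**Figure D1:**
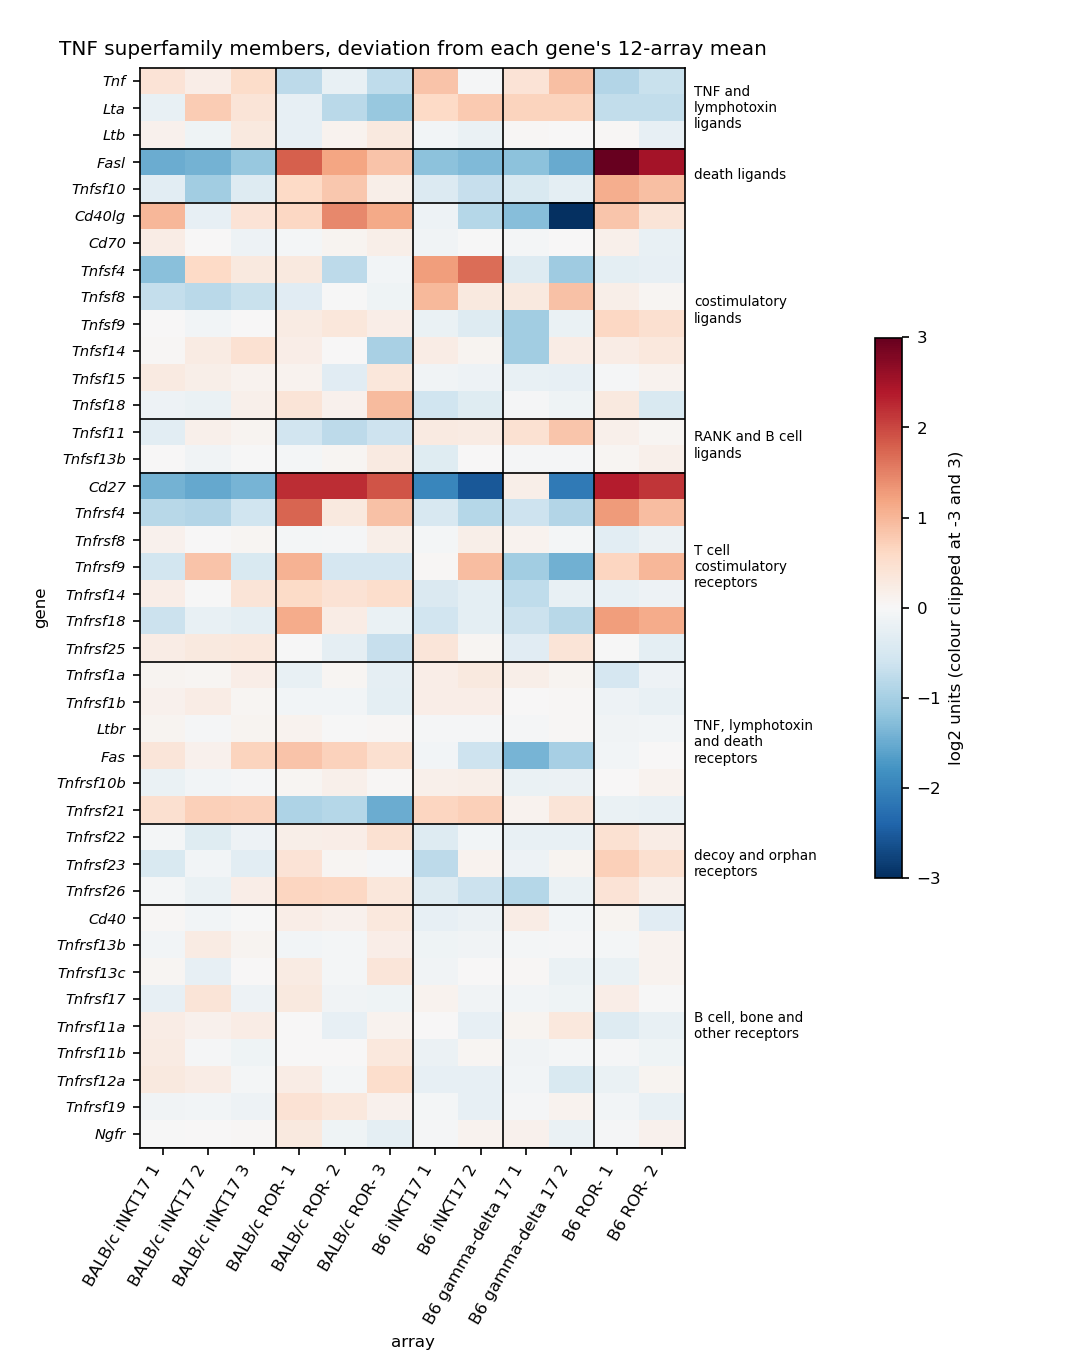
Colour gives each member's log2 level on each of the 12 arrays as a deviation from that gene's mean over all arrays, with members in rows by role and arrays in columns by group. Fasl, Cd27 and Tnfrsf4 are low on the iNKT17 and gamma-delta 17 arrays and high on the ROR- arrays, with Cd27 on gamma-delta 17 replicate 1 between the others.

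The promoters of the members with at least a 2-fold difference are shown because these members make up the main pattern. Each is the 250 bases before the transcription start in RefSeq on GRCm38.p6, a C57BL/6J reference, so any BALB/c variant is not seen. Of the 8 members, Tnf (chr17:35202008-35202257, minus strand), Fasl (chr1:161788496-161788745, minus strand), Tnfsf10 (chr3:27316827-27317076, plus strand), Tnfrsf18 (chr4:156026072-156026321, plus strand) and Tnfrsf21 (chr17:43016305-43016554, plus strand) have a window clear of the annotated gene. Capitals mark matches on either strand to an NF-kB motif (GGGNNNNNCC) or a TATA box (TATAAA).
Tnf: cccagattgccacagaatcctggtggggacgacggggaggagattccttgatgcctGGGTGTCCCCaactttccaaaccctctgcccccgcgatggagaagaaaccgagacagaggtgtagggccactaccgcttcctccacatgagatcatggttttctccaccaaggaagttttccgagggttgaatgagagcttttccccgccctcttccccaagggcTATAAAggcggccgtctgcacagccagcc
Fasl: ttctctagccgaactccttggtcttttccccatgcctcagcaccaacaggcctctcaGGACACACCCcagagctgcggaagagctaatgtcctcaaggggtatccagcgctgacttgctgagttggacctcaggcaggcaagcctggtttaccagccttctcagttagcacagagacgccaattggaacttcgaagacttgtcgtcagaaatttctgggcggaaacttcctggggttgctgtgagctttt
Tnfsf10: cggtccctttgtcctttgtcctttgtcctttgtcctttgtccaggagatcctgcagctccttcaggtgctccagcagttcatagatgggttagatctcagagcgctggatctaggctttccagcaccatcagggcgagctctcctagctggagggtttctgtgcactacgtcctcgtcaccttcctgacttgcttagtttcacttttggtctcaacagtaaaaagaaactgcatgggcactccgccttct
Tnfrsf18: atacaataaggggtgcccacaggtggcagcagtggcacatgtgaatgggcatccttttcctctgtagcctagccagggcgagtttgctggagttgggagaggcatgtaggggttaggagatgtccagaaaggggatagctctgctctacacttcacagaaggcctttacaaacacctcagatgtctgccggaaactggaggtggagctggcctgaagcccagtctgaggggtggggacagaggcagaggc
Tnfrsf21: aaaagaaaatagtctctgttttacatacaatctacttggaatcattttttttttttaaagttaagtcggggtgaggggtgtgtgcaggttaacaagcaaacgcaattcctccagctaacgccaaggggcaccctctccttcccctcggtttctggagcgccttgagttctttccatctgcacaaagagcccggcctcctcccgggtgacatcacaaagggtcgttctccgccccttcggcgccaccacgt
The NF-kB letters were found once in Tnf, 194 bases before the start, and once in Fasl, 193 bases before it, and they occur in 45.8% of 32851 mouse promoter windows of the same length. The TATA box stood 29 bases before the start of Tnf and occurs in 12.4% of windows. An AP-1 motif (TGANTCA, in 6.75% of windows) and a T-box motif (GGTGTGA, 3.33%) had no match in these 5 windows. A motif match is a description of the letters only, and Tnf and Fasl, which both hold the NF-kB letters, differed in opposite directions.

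Among the ligands, TNF and lymphotoxin alpha, which signal through the TNF receptors, stood out as higher in iNKT17 cells. Tnf had log2 levels of 9.68, 9.47 and 9.82 in BALB/c iNKT17 cells, against 8.48, 9.06 and 8.51 in BALB/c ROR- cells. In B6, Tnf had 10.12 and 9.24 in iNKT17 cells, against 8.40 and 8.61 in ROR- cells. All 5 iNKT17 arrays lay above all 5 ROR- arrays, and the mean difference was 1.07 ± 0.18 log2 units (SE, adjusted p = 0.00209), a 2.1-fold higher level. Lta had 8.24, 9.22 and 8.84 in BALB/c iNKT17 cells, against 8.22, 7.66 and 7.33 in BALB/c ROR- cells. Its B6 levels were 9.05 and 9.25 in iNKT17 cells, against 7.73 and 7.71 in ROR- cells. The iNKT17 arrays again lay above the ROR- arrays, by a margin of hundredths of a log2 unit in BALB/c, and the difference was 1.23 ± 0.20 log2 units (SE, adjusted p = 0.00118). Ltb, lymphotoxin beta, which anchors lymphotoxin alpha at the membrane, did not follow: it had 9.86, 9.60 and 10.01 in BALB/c iNKT17 cells, against 9.49, 9.82 and 10.01 in BALB/c ROR- cells. In B6, Ltb had 9.64 and 9.53 in iNKT17 cells, against 9.76 and 9.49 in ROR- cells. The groups overlapped, and its difference was 0.01 ± 0.12 log2 units (SE, adjusted p = 0.988) with a 95% interval of -0.26 to 0.27.

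Both death ligands fell. Fasl, the ligand that kills through Fas, had 3.55, 3.61 and 3.88 in BALB/c iNKT17 cells, against 6.82, 6.22 and 5.87 in BALB/c ROR- cells. In B6 it had 3.79 and 3.70 in iNKT17 cells, against 8.03 and 7.53 in ROR- cells. No iNKT17 array came near a ROR- array, and the difference was -3.33 ± 0.17 log2 units (SE, adjusted p = 2.44e-07). The iNKT17 levels sat close to the dim level, so the size of this fall is uncertain. Tnfsf10, which encodes TRAIL, had 5.09, 4.37 and 5.03 in BALB/c iNKT17 cells, against 5.997, 6.22 and 5.58 in BALB/c ROR- cells. Its B6 levels were 5.003 and 4.72 in iNKT17 cells, against 6.49 and 6.32 in ROR- cells. The arrays did not overlap and the difference was -1.32 ± 0.16 log2 units (SE, adjusted p = 0.000187).

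Of the 8 costimulatory ligands 7 were tested, and 1 passed (14.3%, against 12.3% of all genes, a share near the background). Tnfsf9, the ligand of CD137, was lower, at -0.57 ± 0.14 log2 units (SE, adjusted p = 0.0191), with 5.61, 5.51 and 5.62 in BALB/c iNKT17 cells against 5.85, 5.93 and 5.80 in BALB/c ROR- cells, and 5.39 and 5.21 in B6 iNKT17 cells against 6.22 and 6.09 in B6 ROR- cells. That call was lost at adjusted p values of 0.0851 without B6 iNKT17 replicate 2 and 0.0843 without B6 ROR- replicate 1. Cd40lg, CD40 ligand, through which helper T cells activate B cells and dendritic cells, had 9.09, 7.84 and 8.49 in BALB/c iNKT17 cells, against 8.71, 9.53 and 9.22 in BALB/c ROR- cells. In B6, Cd40lg had 7.93 and 7.23 in iNKT17 cells, against 8.92 and 8.47 in ROR- cells. It overlapped in BALB/c and did not in B6, and its mean difference of -0.90 ± 0.37 log2 units (SE, adjusted p = 0.159) did not pass, although it did at adjusted p values of 0.0424 with only the groups compared in the fit, 0.0424 without B6 gamma-delta 17 replicate 1 and 0.0424 without B6 gamma-delta 17 replicate 2. Tnfsf4, OX40 ligand, spread widely in BALB/c, from 4.01 to 5.84 in iNKT17 and from 4.48 to 5.54 in ROR- cells. In B6 it was separate, with 6.51 and 6.93 in iNKT17 cells against 4.97 and 5.02 in ROR- cells. Its mean difference of 0.89 ± 0.33 log2 units (SE, adjusted p = 0.112) did not pass, although it did in 1 alternative fit, at an adjusted p of 0.00502 without BALB/c iNKT17 replicate 1. In B6 alone the difference was 1.72 log2 units and did not pass (adjusted p = 0.0796). It passed there at 0.00443 with only the groups compared in the fit and 0.00958 without BALB/c iNKT17 replicate 1. Tnfsf14 (LIGHT), a ligand of HVEM and of the lymphotoxin beta receptor, had 6.27, 6.48 and 6.70 in BALB/c iNKT17 cells, against 6.45, 6.24 and 5.26 in BALB/c ROR- cells. In B6, Tnfsf14 had 6.47 and 6.33 in iNKT17 cells, against 6.46 and 6.55 in ROR- cells. These arrays overlapped, with a difference of 0.20 ± 0.26 log2 units (SE, adjusted p = 0.736). Tnfsf15 (TL1A), the ligand of DR3, differed by -0.01 ± 0.12 and Tnfsf18, the ligand of GITR, by -0.47 ± 0.18 log2 units, at adjusted p values of 0.987 and 0.122, and the group means of Tnfsf18 lay below the dim level in every group but BALB/c ROR- cells. Tnfsf18 passed in 1 alternative fit, at an adjusted p of 0.04 without B6 ROR- replicate 2. Tnfsf8, CD30 ligand, averaged out over the strains and is taken up with the strain comparison.

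Tnfsf11, RANK ligand, which drives osteoclasts and lymph node formation, had 6.34, 6.81 and 6.73 in BALB/c iNKT17 cells, against 6.08, 5.88 and 6.03 in BALB/c ROR- cells. In B6 it had 6.93 and 6.89 in iNKT17 cells, against 6.81 and 6.72 in ROR- cells. The strains parted: the groups were separate within each strain, but BALB/c iNKT17 arrays overlapped B6 ROR- arrays. The mean difference of 0.39 ± 0.11 log2 units (SE, adjusted p = 0.0477) was lost in 9 of the 12 fits that left out 1 array, at adjusted p values of 0.1 without BALB/c iNKT17 replicate 2, 0.106 without BALB/c iNKT17 replicate 3, 0.0558 without BALB/c ROR- replicate 1, 0.0947 without BALB/c ROR- replicate 2, 0.0647 without BALB/c ROR- replicate 3, 0.125 without B6 iNKT17 replicate 1, 0.123 without B6 iNKT17 replicate 2, 0.112 without B6 ROR- replicate 1 and 0.138 without B6 ROR- replicate 2. It was also lost at 0.0536 with no dim filter and 0.0659 with the replicate block.

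**Figure D2:**
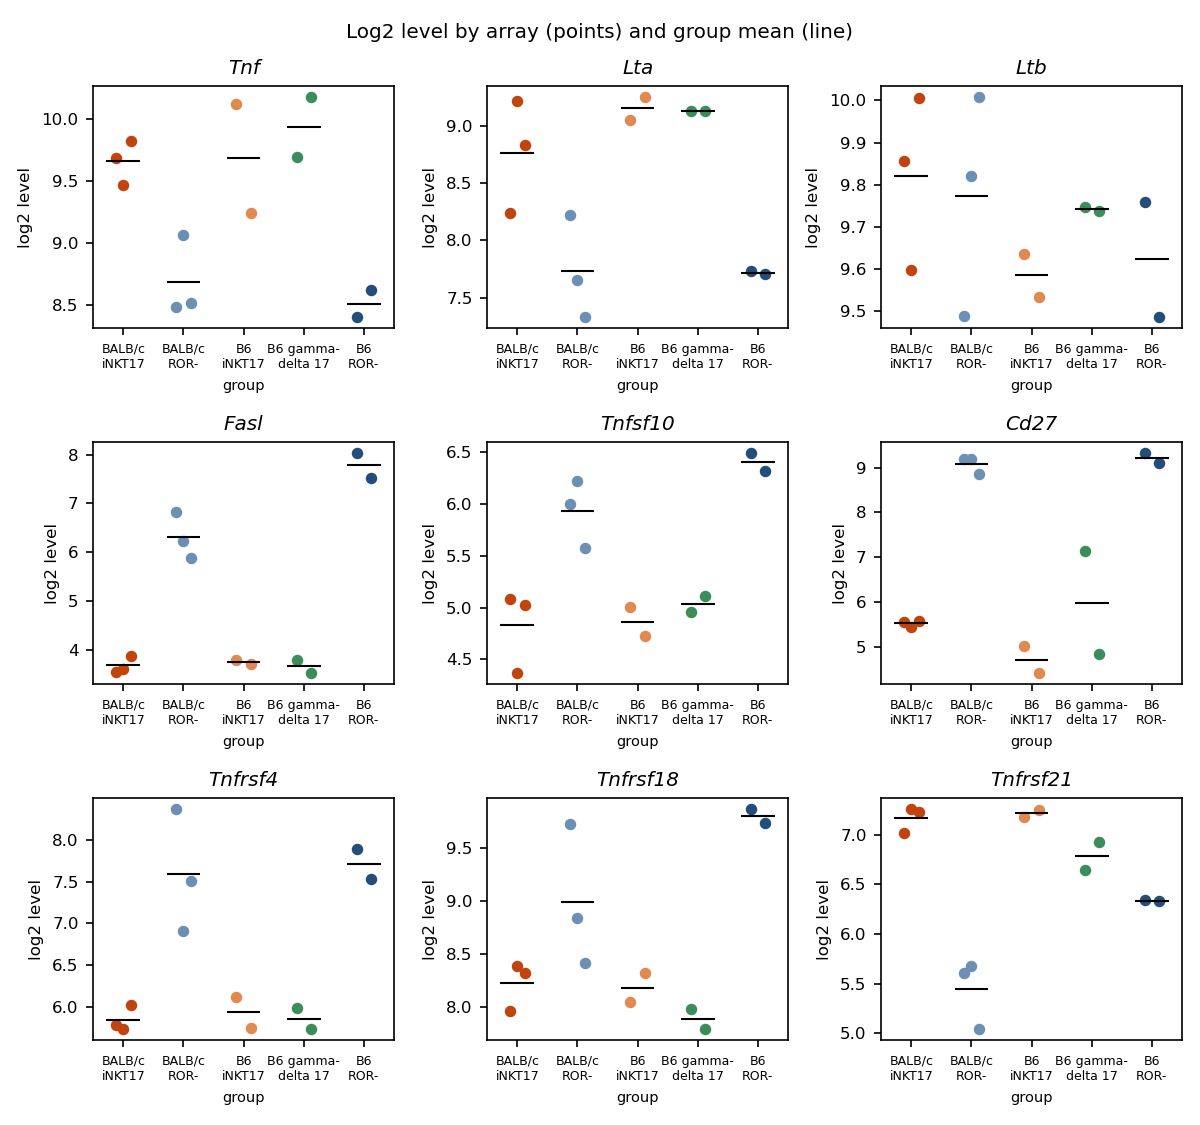
Points give the log2 level of 9 members on each array and lines the group mean (n = 2 or 3 arrays), on an axis scaled to each gene. Tnf, Lta and Tnfrsf21 lie higher on iNKT17 than on ROR- arrays, Fasl, Tnfsf10, Cd27, Tnfrsf4 and Tnfrsf18 lie lower, and Ltb overlaps.

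Among the 7 T cell costimulatory receptors, 3 fell and none rose by limma (42.9% passed, against 12.3% of all genes). At an unadjusted p under 0.05 the only further one was Tnfrsf25 (57.1%, against 23.7% of all genes). Cd27, which supports T cell survival, had 5.56, 5.44 and 5.58 in BALB/c iNKT17 cells, against 9.18, 9.19 and 8.85 in BALB/c ROR- cells. In B6, Cd27 had 5.02 and 4.42 in iNKT17 cells, against 9.32 and 9.11 in ROR- cells. The gap far exceeded the spread within groups, at -4.02 ± 0.33 log2 units (SE, adjusted p = 7.53e-06). Tnfrsf4, which encodes OX40, had 5.79, 5.74 and 6.02 in BALB/c iNKT17 cells, against 8.37, 6.92 and 7.501 in BALB/c ROR- cells. Its B6 levels were 6.13 and 5.75 in iNKT17 cells, against 7.89 and 7.53 in ROR- cells. BALB/c ROR- replicate 1 was the highest array, no iNKT17 array reached any ROR- array, and the difference was -1.76 ± 0.23 log2 units (SE, adjusted p = 0.000259). Tnfrsf18, which encodes GITR, had 7.96, 8.39 and 8.32 in BALB/c iNKT17 cells, against 9.73, 8.84 and 8.41 in BALB/c ROR- cells. In B6, Tnfrsf18 had 8.05 and 8.32 in iNKT17 cells, against 9.87 and 9.73 in ROR- cells. BALB/c groups nearly touched while B6 groups lay well apart, and the mean difference was -1.20 ± 0.21 log2 units (SE, adjusted p = 0.00233). In BALB/c alone the Tnfrsf18 difference was -0.77 log2 units and did not pass (adjusted p = 0.125). It passed there at 0.0396 with array weights and 0.0272 without BALB/c ROR- replicate 3.

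The other 4 costimulatory receptors did not pass. Tnfrsf9, which encodes CD137 and is induced by T cell activation, had 6.64, 8.05 and 6.74 in BALB/c iNKT17 cells, against 8.23, 6.69 and 6.69 in BALB/c ROR- cells. In B6, Tnfrsf9 had 7.24 and 8.13 in iNKT17 cells, against 7.84 and 8.20 in ROR- cells. Single arrays stood out in both BALB/c groups, and the difference was -0.20 ± 0.36 log2 units (SE, adjusted p = 0.815). Tnfrsf25, which encodes DR3, the receptor for TL1A, had 7.31, 7.40 and 7.41 in BALB/c iNKT17 cells, against 7.08, 6.82 and 6.41 in BALB/c ROR- cells. In B6, Tnfrsf25 had 7.46 and 7.16 in iNKT17 cells, against 7.09 and 6.80 in ROR- cells. All iNKT17 arrays lay above all ROR- arrays, but the difference of 0.49 ± 0.16 log2 units (SE, adjusted p = 0.0772) did not pass. It passed in 4 alternative fits, at adjusted p values of 0.0389 with only the groups compared in the fit, 0.0412 without BALB/c ROR- replicate 1, 0.0389 without B6 gamma-delta 17 replicate 1 and 0.0389 without B6 gamma-delta 17 replicate 2. Tnfrsf14, which encodes HVEM, differed by -0.25 ± 0.12 log2 units (SE, adjusted p = 0.22). Tnfrsf8, CD30, had group means below the dim level throughout and differed by 0.17 ± 0.09 log2 units (SE, adjusted p = 0.297).

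Of the 6 receptors for TNF, lymphotoxin and death ligands, 3 rose and none fell by limma (50% passed, against 12.3% of all genes). At an unadjusted p under 0.05 there was no further one (50%, against 23.7% of all genes). Tnfrsf21, which encodes death receptor 6, had 7.02, 7.26 and 7.23 in BALB/c iNKT17 cells, against 5.61, 5.68 and 5.04 in BALB/c ROR- cells. In B6, Tnfrsf21 had 7.18 and 7.25 in iNKT17 cells, against 6.35 and 6.33 in ROR- cells. The iNKT17 arrays of both strains lay close together and above every ROR- array, with a difference of 1.30 ± 0.13 log2 units (SE, adjusted p = 3.22e-05). The TNF receptors rose by less than 2-fold: Tnfrsf1a, the widely expressed death domain receptor, by 0.42 ± 0.10 log2 units (SE, adjusted p = 0.0189). Its levels were 6.75 to 6.88 in BALB/c iNKT17 and 6.88 to 6.96 in B6 iNKT17 cells, against 6.41 to 6.74 in BALB/c ROR- and 6.17 to 6.53 in B6 ROR- cells. Tnfrsf1b, the TNF receptor prominent on T cells, was higher by 0.34 ± 0.08 log2 units (SE, adjusted p = 0.017), at 8.23 to 8.39 in BALB/c iNKT17 and 8.37 to 8.38 in B6 iNKT17 cells, against 7.87 to 8.09 in BALB/c ROR- and 7.94 to 8.02 in B6 ROR- cells. The iNKT17 and ROR- arrays did not overlap for either receptor. The Tnfrsf1a call was lost at adjusted p values of 0.0783 without B6 iNKT17 replicate 2 and 0.107 without B6 ROR- replicate 1. That of Tnfrsf1b was lost at 0.0553 without B6 iNKT17 replicate 1, 0.0633 without B6 iNKT17 replicate 2 and 0.0673 without B6 ROR- replicate 2. Ltbr, the lymphotoxin beta receptor, differed by 0.02 ± 0.08 log2 units, with a 95% interval of -0.14 to 0.19, and Tnfrsf10b, the mouse TRAIL receptor, by -0.05 ± 0.08, at adjusted p values of 0.905 and 0.775. Fas, the death receptor, had 7.38, 7.17 and 7.71 in BALB/c iNKT17 cells, against 7.89, 7.72 and 7.51 in BALB/c ROR- cells. In B6, Fas had 6.94 and 6.40 in iNKT17 cells, against 6.96 and 7.03 in ROR- cells. It overlapped in BALB/c and was separate in B6, and its difference of -0.31 ± 0.15 log2 units (SE, adjusted p = 0.233) did not pass.

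The decoy and orphan receptors Tnfrsf22, Tnfrsf23 and Tnfrsf26 all fell by less than 2-fold (3 of 3 passed by limma, against 12.3% of all genes). In each strain alone, with all arrays, 0 of the 3 passed by limma. Their lowest adjusted p was 0.0618 in BALB/c and 0.0561 in B6. Tnfrsf22 and Tnfrsf23 are decoy TRAIL receptors in the mouse. Tnfrsf22 differed by -0.52 ± 0.11 log2 units (SE, adjusted p = 0.00617), Tnfrsf23 by -0.69 ± 0.17 log2 units (SE, adjusted p = 0.0179) and Tnfrsf26 by -0.67 ± 0.14 log2 units (SE, adjusted p = 0.00811). The iNKT17 and ROR- arrays of Tnfrsf22 were separate, and those of Tnfrsf23 and Tnfrsf26 overlapped across the strains. These genes are close copies of each other beside one another in the genome, so their probe sets may share signal and the 3 values are uncertain as separate results. Tnfrsf23 was lost at adjusted p values of 0.0645 without B6 iNKT17 replicate 1 and 0.0863 without B6 ROR- replicate 1. Of the remaining receptors, 4 serve B cells (Cd40, Tnfrsf13b or TACI, Tnfrsf13c or the BAFF receptor, and Tnfrsf17 or BCMA), 2 bind RANK ligand (Tnfrsf11a or RANK, and Tnfrsf11b or the decoy osteoprotegerin) and 3 are known from other tissues (Tnfrsf12a or Fn14, Tnfrsf19 or TROY, and Ngfr, a neurotrophin receptor). Among them 0 of 9 passed by limma, against 12.3% of all genes. At an unadjusted p under 0.05 there was 1 (11.1%, against 23.7% of all genes), Tnfrsf19, at -0.21 ± 0.09 log2 units (SE, adjusted p = 0.19). Tnfrsf17 had group means below the dim level throughout. Their differences spanned -0.21 to 0.21.

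**Figure D3:**
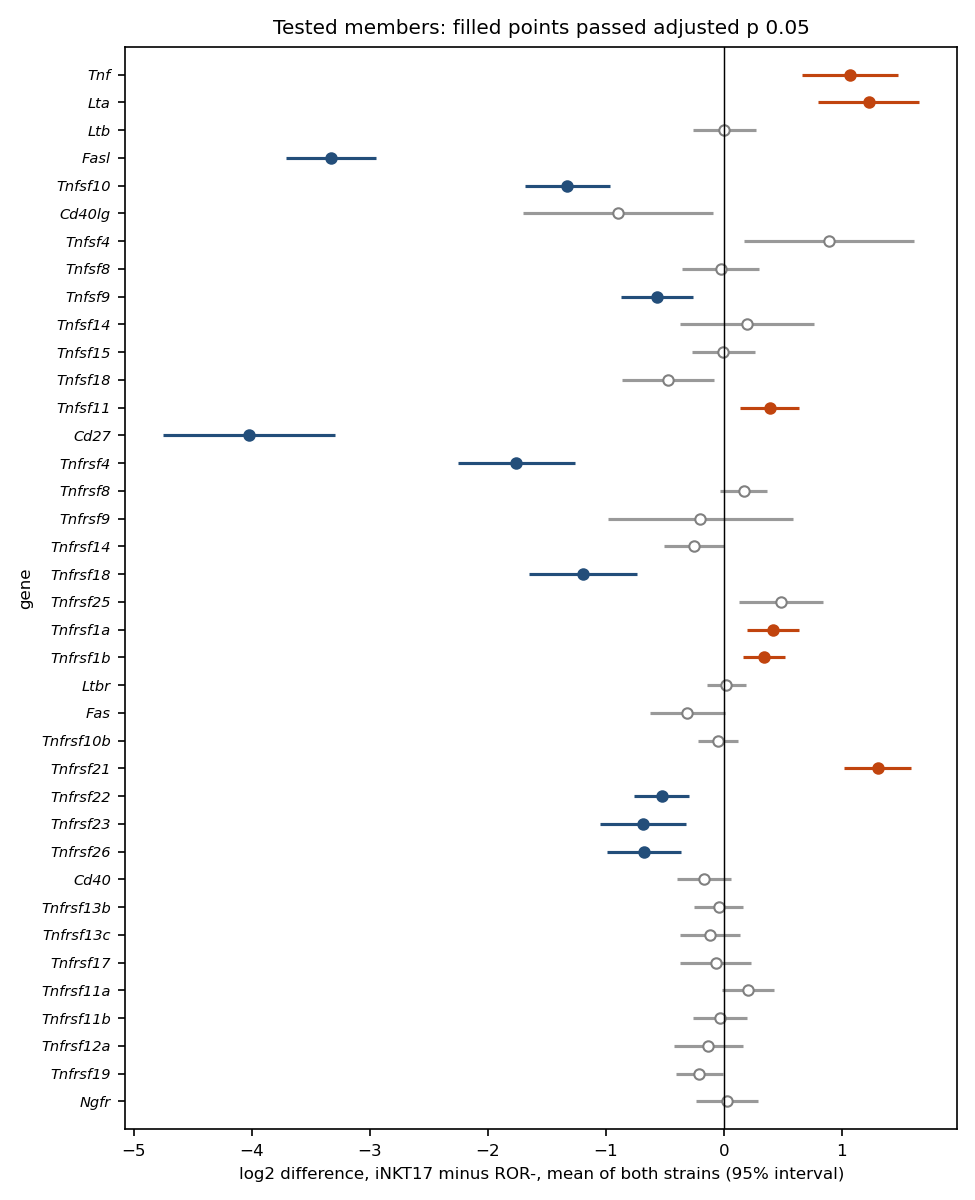
Points give the log2 difference of iNKT17 minus ROR- cells as the mean of both strains for the 38 tested members, in order of role, with 95% intervals as bars. Filled points passed an adjusted p of 0.05, 6 to the right of 0 and 9 to the left.

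Downstream of the receptors, a list of 43 TRAF adaptors, death domain proteins and NF-kB genes, of which 39 were on the array and tested, gave 3 genes higher and 2 lower (12.8%, against 12.3% of all genes), with a median difference of 0.0061 log2 units. That share is at the background. Tab2, an adaptor of the kinase TAK1, rose by 0.72 ± 0.09 log2 units in iNKT17 cells (SE, adjusted p = 0.000168). Adam17, the protease that sheds TNF and its receptors, was higher by 0.60 ± 0.12 (adjusted p = 0.00497), and Tnip1, an inhibitor of NF-kB signalling, by 0.56 ± 0.13 (adjusted p = 0.0125). Traf1 was lower, at -0.85 ± 0.15 (adjusted p = 0.00264), and Traf5, an adaptor of CD27 and OX40, at -0.80 ± 0.13 (adjusted p = 0.00142). The Tnip1 call was lost at adjusted p values of 0.0568 without B6 iNKT17 replicate 1 and 0.0516 without B6 ROR- replicate 1.

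Taken strain by strain, Fasl, Tnfsf10, Cd27 and Tnfrsf4 fell and Tnf, Lta and Tnfrsf21 rose in both. In BALB/c, 8 members passed (21.1% of those tested, against 6.97% of all genes), 4 higher and 4 lower (4.06% and 2.91% of all genes), 6 of them by at least 2-fold (2.87% of all genes). Fasl differed by -2.62 ± 0.22 log2 units (SE, adjusted p = 1.95e-05), Cd27 by -3.55 ± 0.42 log2 units (SE, adjusted p = 0.000256), Tnfrsf21 by 1.73 ± 0.16 log2 units (SE, adjusted p = 4.54e-05) and Tnfrsf4 by -1.74 ± 0.29 log2 units (SE, adjusted p = 0.00273). Tnfsf10 differed by -1.11 ± 0.21 log2 units (SE, adjusted p = 0.00617). These 5 calls held without any single array. Tnf, at 0.97 ± 0.23 log2 units (SE, adjusted p = 0.0267), was lost at adjusted p values of 0.0802 without BALB/c iNKT17 replicate 1, 0.11 without BALB/c iNKT17 replicate 3, 0.0831 without BALB/c ROR- replicate 1 and 0.101 without BALB/c ROR- replicate 3, and also at 0.0533 with the replicate block. Lta, at 1.03 ± 0.25 log2 units (SE, adjusted p = 0.0268), was lost at 0.0982 without BALB/c iNKT17 replicate 2, 0.0975 without BALB/c iNKT17 replicate 3, 0.08 without BALB/c ROR- replicate 2 and 0.108 without BALB/c ROR- replicate 3, and also at 0.0936 with only the groups compared in the fit. Tnfsf11, at 0.63 ± 0.15 log2 units (SE, adjusted p = 0.0212), was lost at 0.088 without BALB/c iNKT17 replicate 2, 0.0968 without BALB/c iNKT17 replicate 3, 0.0769 without BALB/c ROR- replicate 2 and 0.0518 without BALB/c ROR- replicate 3, and also at 0.052 with only the groups compared in the fit. The number called was 5 without iNKT17 replicate 3, where 742 of all genes passed, against 1161 with all arrays. Without BALB/c ROR- replicate 2, 6 members and 1008 of all genes passed, with Tnf at 1.16, Fasl at -2.67, Tnfsf10 at -0.96, Cd27 at -3.49, Tnfrsf4 at -2.08 and Tnfrsf21 at 1.85 log2 units.

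In B6, 9 members passed (23.7%, against 5.99% of all genes), 3 higher and 6 lower (2.83% and 3.16% of all genes), 7 of them by at least 2-fold (3.49% of all genes). Fasl differed by -4.03 ± 0.27 log2 units (SE, adjusted p = 7.23e-06), Cd27 by -4.50 ± 0.51 log2 units (SE, adjusted p = 0.000239) and Tnfsf10 by -1.54 ± 0.25 log2 units (SE, adjusted p = 0.00314), and these 3 calls held without any single array. Tnfrsf4, at -1.77 ± 0.35 log2 units (SE, adjusted p = 0.00991), was lost at 0.0978 without B6 iNKT17 replicate 2 and 0.106 without B6 ROR- replicate 1. Tnfrsf18, at -1.62 ± 0.32 log2 units (SE, adjusted p = 0.0103), was lost at 0.0844 without B6 iNKT17 replicate 1, 0.0906 without B6 ROR- replicate 1 and 0.0513 without B6 ROR- replicate 2. Tnf, at 1.17 ± 0.29 log2 units (SE, adjusted p = 0.0318), was lost at 0.248 without B6 iNKT17 replicate 1, 0.221 without B6 ROR- replicate 1 and 0.0934 without B6 ROR- replicate 2, and also at 0.0943 with only the groups compared in the fit and 0.0639 with the replicate block. Without B6 iNKT17 replicate 1 the Tnf difference was 0.73 log2 units. The calls of Lta, at 1.43 ± 0.30 log2 units (SE, adjusted p = 0.0143), and of Tnfrsf21, at 0.88 ± 0.20 log2 units (SE, adjusted p = 0.0214), were lost without any 1 of the 4 B6 iNKT17 and ROR- arrays, at adjusted p values of 0.0585 to 0.114 and 0.0901 to 0.137. Tnfsf9, at -0.86 ± 0.22 log2 units (SE, adjusted p = 0.0375), was lost in 8 of the 12 fits that left out an array, at 0.0508 to 0.246, and also at 0.0524 with each array centred on its median and 0.0668 with the replicate block. Fewer members were called without any 1 of the 4 B6 iNKT17 and ROR- arrays, and fewer of all genes were called as well.

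Whether the iNKT17 against ROR- difference was itself unequal between the strains was tested as an interaction. By limma 0 of the 38 members passed, against 0.084% of all genes, and 5 members had an unadjusted p under 0.05 (13.2%, against 4.01% of all genes). The lowest p belonged to Fasl, whose difference was -2.62 ± 0.22 in BALB/c and -4.03 ± 0.27 in B6, an interaction of 1.41 ± 0.35 log2 units (SE, adjusted p = 0.399). Tnfrsf21 had an interaction of 0.85 ± 0.26 (adjusted p = 0.71) and Tnfsf4 one of -1.65 ± 0.66 (adjusted p = 0.999).

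The series set out to compare iNKT cells of the 2 strains. In iNKT17 cells, CD30 ligand was lower in BALB/c than in B6, and it was the 1 member that passed out of 38 (2.63%, against 1.48% of all genes and 0.81% for those lower in BALB/c). Tnfsf8 had 4.67, 4.56 and 4.70 in BALB/c iNKT17 cells, against 6.36 and 5.68 in B6 iNKT17 cells. The strains did not overlap and the difference was -1.38 ± 0.21 log2 units (SE, adjusted p = 0.00703). It was lost without B6 iNKT17 replicate 1, at -1.04 and an adjusted p of 0.0703. In ROR- cells Tnfsf8 had 5.04, 5.35 and 5.24 in BALB/c, against 5.56 and 5.44 in B6, a difference of -0.29 ± 0.21 log2 units (SE, adjusted p = 0.625). Of the 3 iNKT markers, Zbtb16 was higher in BALB/c iNKT17 cells by 0.98 ± 0.18 log2 units (adjusted p = 0.019) and the others did not pass, and of the 4 type 1 markers 0 passed by limma and 0 had an unadjusted p under 0.05. The part of these markers was not tested. At an unadjusted p under 0.05 there were 7 members in iNKT17 cells (18.4%, against 12.6% of all genes), among them Fas at 0.75 ± 0.21 (adjusted p = 0.127), Tnfsf4 at -1.58 ± 0.46 (adjusted p = 0.152) and Tnfrsf14 at 0.55 ± 0.16 (adjusted p = 0.158). Fas passed in 1 alternative fit, at 0.041 with array weights, and Tnfsf4 in 1, at 0.048 without BALB/c iNKT17 replicate 2.

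In ROR- cells, Fas ligand, death receptor 6 and RANK ligand were lower in BALB/c than in B6. These 3 members passed out of 38 (7.89%, against 1.22% of all genes and 0.84% for those lower in BALB/c), and 9 had an unadjusted p under 0.05 (23.7%, against 11.9% of all genes). Fasl had 6.82, 6.22 and 5.87 in BALB/c ROR- cells, against 8.03 and 7.53 in B6 ROR- cells, a difference of -1.47 ± 0.24 log2 units (SE, adjusted p = 0.0121). The strains were separate, and the call was lost without B6 ROR- replicate 1, at an adjusted p of 0.166. Tnfrsf21 had 5.61, 5.68 and 5.04 in BALB/c ROR- cells, against 6.35 and 6.33 in B6 ROR- cells, a difference of -0.90 ± 0.18 log2 units (SE, adjusted p = 0.0388). Tnfsf11 had 6.08, 5.88 and 6.03 in BALB/c ROR- cells, against 6.81 and 6.72 in B6 ROR- cells, a difference of -0.77 ± 0.16 log2 units (SE, adjusted p = 0.0465). The arrays of both genes were separate by strain, yet each call was lost in 8 of the 12 fits that left out an array, at adjusted p values of 0.0507 to 0.272 for Tnfrsf21 and 0.0579 to 0.257 for Tnfsf11. Other settings also ended these calls: Fasl at 0.098 with only the groups compared in the fit, Tnfrsf21 at 0.185 with only the groups compared in the fit and 0.0972 with the replicate block and Tnfsf11 at 0.0945 with only the groups compared in the fit and 0.0962 with the replicate block. Without BALB/c ROR- replicate 2, Fasl stood at -1.43 (adjusted p = 0.0452), Tnfrsf21 at -1.01 (0.0367) and Tnfsf11 at -0.71 (0.135). The number called was 1 without BALB/c ROR- replicate 3 and 1 without BALB/c iNKT17 replicate 3. In these fits 132 and 149 of all genes passed, against 203 with all arrays. Fewer members and fewer of all genes were also called without either B6 ROR- array or either B6 iNKT17 array. Fas and Tnfrsf14 were higher in BALB/c ROR- cells by 0.71 ± 0.21 and 0.69 ± 0.16 without passing (adjusted p = 0.163 and 0.0761). Tnfrsf14 passed at 0.0405 without B6 gamma-delta 17 replicate 1 and 0.0405 without B6 gamma-delta 17 replicate 2. Marker genes also differed between these groups. Of the 4 type 1 markers 1 passed, Klrb1c, lower in BALB/c at -2.25 ± 0.33 (adjusted p = 0.00561), and the others (Tbx21, Klrd1 and Nkg7) lay between -0.92 and 0.23. Of the 3 iNKT markers 1 passed, Cd4, higher in BALB/c at 0.88 ± 0.17 (adjusted p = 0.031), with Slamf6 at 1.63 ± 0.53 and Zbtb16 at 0.46 ± 0.18 (adjusted p = 0.231 and 0.325). The part of these markers in the results was not tested.

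**Figure D4:**
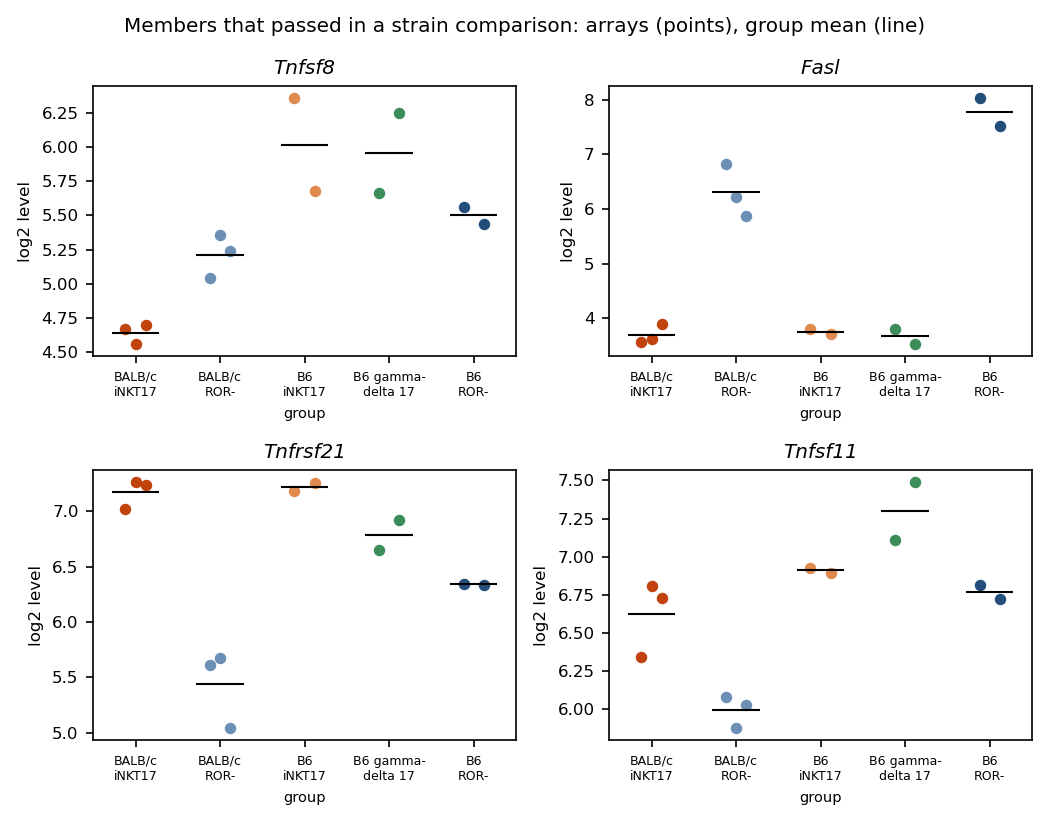
Points give the log2 level of the 4 members that passed in a strain comparison on each array, and lines the group mean (n = 2 or 3 arrays). Tnfsf8 is lower in BALB/c iNKT17 than in B6 iNKT17 cells, and Fasl, Tnfrsf21 and Tnfsf11 are lower in BALB/c ROR- than in B6 ROR- cells.

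Gamma-delta 17 cells against ROR- cells of B6 showed higher TNF and lymphotoxin alpha and lower Fas ligand, TRAIL, CD40 ligand, CD137 ligand, CD27, OX40, GITR and Fas. In all 10 members passed (26.3%, against 6.02% of all genes), 2 higher and 8 lower (2.61% and 3.41% of all genes), all 10 by at least 2-fold (3.48% of all genes). This comparison shares the 2 B6 ROR- arrays with that of B6 iNKT17 cells. Tnf had 9.69 and 10.17 in gamma-delta 17 cells, against 8.40 and 8.61 in B6 ROR- cells, a difference of 1.42 ± 0.29 log2 units (SE, adjusted p = 0.0108). Lta had 9.13 and 9.13 in gamma-delta 17 cells, against 7.73 and 7.71 in B6 ROR- cells, a difference of 1.41 ± 0.30 log2 units (SE, adjusted p = 0.0164). Both gamma-delta 17 arrays lay above both ROR- arrays for these ligands. Fasl had 3.80 and 3.53 in gamma-delta 17 cells, against 8.03 and 7.53 in B6 ROR- cells, a difference of -4.11 ± 0.27 log2 units (SE, adjusted p = 5.77e-06). Tnfsf10 had 4.95 and 5.11 in gamma-delta 17 cells, against 6.49 and 6.32 in B6 ROR- cells, a difference of -1.37 ± 0.25 log2 units (SE, adjusted p = 0.00633). The gamma-delta 17 arrays lay well below for both death ligands. Cd40lg had 6.81 and 4.74 in gamma-delta 17 cells, against 8.92 and 8.47 in B6 ROR- cells, a difference of -2.92 ± 0.57 log2 units (SE, adjusted p = 0.00912). Tnfsf9 had 4.56 and 5.41 in gamma-delta 17 cells, against 6.22 and 6.09 in B6 ROR- cells, a difference of -1.17 ± 0.22 log2 units (SE, adjusted p = 0.00627). Replicates 1 and 2 were far apart for both of these ligands, CD40 ligand being higher on replicate 1 and CD137 ligand on replicate 2. The Tnfsf9 call was lost at 0.0704 with only the groups compared in the fit.

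Among the receptors, Cd27 had 7.14 and 4.85 in gamma-delta 17 cells, against 9.32 and 9.11 in B6 ROR- cells, a difference of -3.23 ± 0.51 log2 units (SE, adjusted p = 0.00251). The higher value was on replicate 1, the array with S100a8 and Klrd1. For Tnfrsf4 the levels were 5.98 and 5.74 in gamma-delta 17 cells, against 7.89 and 7.53 in B6 ROR- cells, a difference of -1.85 ± 0.35 log2 units (SE, adjusted p = 0.00772). For Tnfrsf18 they were 7.98 and 7.79 in gamma-delta 17 cells, against 9.87 and 9.73 in B6 ROR- cells, a difference of -1.92 ± 0.32 log2 units (SE, adjusted p = 0.00359). Both costimulatory receptors were separate between the groups. For Fas they were 5.62 and 6.03 in gamma-delta 17 cells, against 6.96 and 7.03 in B6 ROR- cells, a difference of -1.17 ± 0.23 log2 units (SE, adjusted p = 0.00861). Tnfrsf9 did not pass with all arrays, with 6.15 and 5.76 in gamma-delta 17 cells, against 7.84 and 8.20 in B6 ROR- cells and a difference of -2.07 ± 0.55 log2 units (SE, adjusted p = 0.0501). It passed in 8 of the 21 alternative fits, at adjusted p values of 0.0447 with each array centred on its median, 0.0456 with quantile normalization, 0.0464 with a stricter dim filter, 0.039 with array weights, 0.00298 with only the groups compared in the fit, 0.0494 with the mean of probe sets, 0.0238 without BALB/c iNKT17 replicate 2 and 0.0151 without BALB/c ROR- replicate 1. The receptor Tnfrsf21, which rose in B6 iNKT17 cells, had 6.65 and 6.92 in gamma-delta 17 cells and a difference of 0.45 ± 0.20 log2 units (SE, adjusted p = 0.262).

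Without gamma-delta 17 replicate 1, where the lone remaining array is assumed to vary like the other groups, 8 members passed. The falls were Fasl at -4.25 (adjusted p = 3.98e-05), Cd27 at -4.37 (adjusted p = 4.28e-06), Cd40lg at -3.95 (adjusted p = 0.000688), Tnfrsf18 at -2.01 (adjusted p = 0.018) and Tnfrsf4 at -1.97 (adjusted p = 0.031). Tnfsf10 and Tnfsf9 stayed lower, with Tnfsf10 at -1.29 (adjusted p = 0.0495) and Tnfsf9 at -0.75 (adjusted p = 0.0218). The rise in TNF stayed, with Tnf at 1.67 (adjusted p = 0.0183), and 2 calls were lost, Lta at 1.41 (adjusted p = 0.0783) and Fas at -0.97 (adjusted p = 0.0826). Cd27 and Cd40lg thus lay further below ROR- cells without that array. Without replicate 2, 7 passed: 1 call was gained, Tnfrsf26 at -1.13 (adjusted p = 0.0175), and the 4 lost were Tnf at 1.18 (adjusted p = 0.1), Lta at 1.41 (adjusted p = 0.083), Cd40lg at -1.89 (adjusted p = 0.0599) and Tnfrsf4 at -1.72 (adjusted p = 0.0652), while Cd27 was at -2.08 (adjusted p = 0.000843). Without B6 ROR- replicate 1, 3 passed, and the calls lost reached adjusted p values of 0.0933 for Tnf, 0.0908 for Lta, 0.0636 for Tnfsf10, 0.0844 for Cd40lg, 0.0622 for Tnfsf9, 0.0802 for Tnfrsf4 and 0.0538 for Fas. Without B6 ROR- replicate 2, the calls of Lta, at 1.40, and Fas, at -1.13, were lost. Fewer of all genes passed as well in each of these fits.

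**Figure D5:**
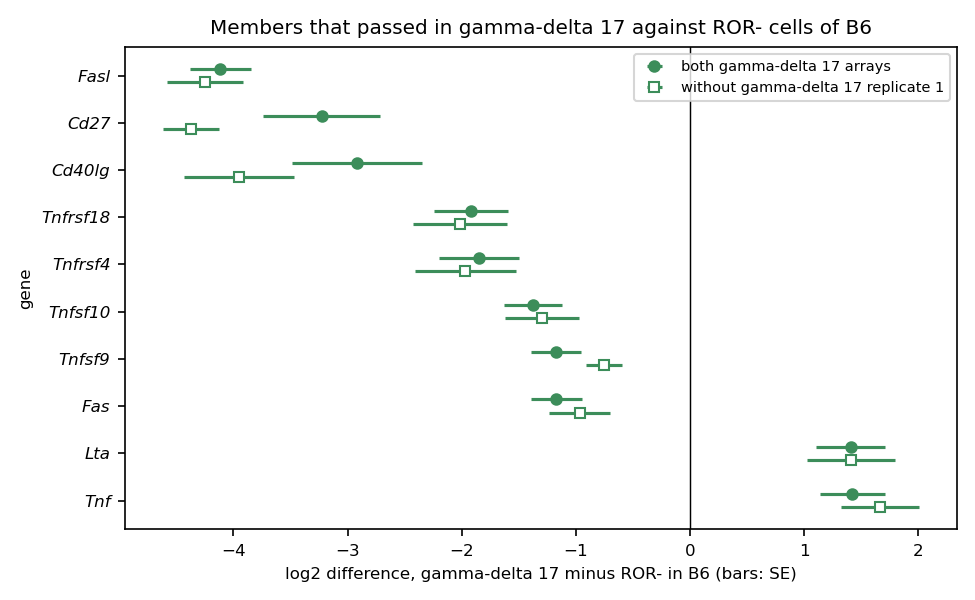
Points give the log2 difference of gamma-delta 17 minus ROR- cells in B6 for the 10 members that passed, with SE bars, from both gamma-delta 17 arrays (filled) and without gamma-delta 17 replicate 1 (open). Fasl, Cd27 and Cd40lg lie furthest below 0, and Cd27 and Cd40lg lie lower still without replicate 1.

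Between the 2 kinds of interleukin 17-making cells of B6, 0 of 38 members passed by limma (0.168% of all genes), and 6 had an unadjusted p under 0.05 (15.8%, against 8.5% of all genes). OX40 ligand had the lowest p: Tnfsf4 had 6.51 and 6.93 in iNKT17 cells, against 4.86 and 4.19 in gamma-delta 17 cells, a difference of 2.19 ± 0.51 log2 units (SE, adjusted p = 0.175) with a 95% interval of 1.08 to 3.30. The arrays were separate, and without BALB/c iNKT17 replicate 1, which enters only through the shared spread, the adjusted p was 0.0318. Cd40lg had 7.93 and 7.23 in iNKT17 cells, against 6.81 and 4.74 in gamma-delta 17 cells, a difference of 1.80 ± 0.57 log2 units (SE, adjusted p = 0.386). Without gamma-delta 17 replicate 1 it was 2.84 and passed (adjusted p = 0.0399). Cd27 had 5.02 and 4.42 in iNKT17 cells, against 7.14 and 4.85 in gamma-delta 17 cells, a difference of -1.27 ± 0.51 log2 units (SE, adjusted p = 0.527). Without gamma-delta 17 replicate 2, leaving the array with S100a8 and Klrd1, it was -2.41 and passed (adjusted p = 0.00141). Without replicate 1 it was -0.12 (adjusted p = 0.998). Tnfrsf9 differed by 1.73 ± 0.55 log2 units (SE, adjusted p = 0.391), Fas by 0.84 ± 0.23 log2 units (SE, adjusted p = 0.268) and Tnfrsf10b by 0.36 ± 0.12 log2 units (SE, adjusted p = 0.43). Without gamma-delta 17 replicate 1 these differences were 1.93, 0.64 and 0.35 log2 units, and that of Tnfsf4 was 2.53. Tnf, Lta and Fasl passed against ROR- cells for both kinds of cells, and differed between the 2 kinds by -0.25, 0.02 and 0.08 log2 units. The 95% intervals were -0.88 to 0.37 for Tnf, -0.64 to 0.68 for Lta and -0.50 to 0.67 for Fasl. These 3 do not stand for all such members: Cd27, Cd40lg and Fas also passed for gamma-delta 17 against ROR- cells, and their differences, given above, were larger.

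In gamma-delta 17 cells 2 of the 39 signalling genes passed against ROR- cells (5.13%, against 6.02% of all genes, a share below the background): Tab2 was higher by 0.84 ± 0.14 (adjusted p = 0.00285) and Traf5 lower, at -0.91 ± 0.20 (adjusted p = 0.0191). Traf5 was lost at adjusted p values of 0.145 without gamma-delta 17 replicate 2, 0.0986 without B6 ROR- replicate 1, 0.11 without B6 ROR- replicate 2 and 0.0726 with only the groups compared in the fit. In iNKT17 cells of BALB/c 4 passed (10.3%, against 6.97% of all genes), Tab2, Adam17 and Tnip1 higher and Traf1 lower. The Tnip1 call was lost under 13 of the 21 alternatives, Traf1 under 4 and Adam17 under 1, at adjusted p values up to 0.135, 0.109 and 0.0621. In iNKT17 cells of B6 3 passed (7.69%, against 5.99% of all genes), Tab2 higher and Traf1 and Traf5 lower. Traf1, at -0.91 ± 0.24, was lost under 9 of the 21, reaching -0.57 (adjusted p = 0.368) without B6 iNKT17 replicate 2, and Tab2 under 3, at up to 0.0639. Over the other settings, and with each array left out in turn, the number was 1 to 4 in BALB/c and 1 to 3 in B6. By limma 0 passed in either strain comparison, in the interaction or between iNKT17 and gamma-delta 17 cells. At an unadjusted p under 0.05 there were 6 of the 39 in each strain comparison, against 12.6% of all genes in iNKT17 cells and 11.9% in ROR- cells. The interaction had 2 (4.01% of all genes), and iNKT17 against gamma-delta 17 cells had 2 (8.5% of all genes). These counts were not tested against those shares.

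Many members lie side by side in the mouse genome. By the RefSeq gene table of GRCm38.p6, 21 of the 40 members lie in 8 clusters with at most 1 other protein-coding gene between neighbours. In iNKT17 against ROR- cells the differences of the tested members had 1 sign within 5 of the clusters and both signs within 3, counting members that did not pass, and the sharing was not tested. Some of these signs rest on differences close to none: 0.005 log2 units for Ltb, -0.006 for Tnfsf15 and -0.025 for Tnfsf8. No share for other neighbouring genes is given, so the count is a description only. On chromosome 17, Tnf and Lta rose while Ltb, beside them, did not pass. On chromosome 1, Fasl fell while its neighbours Tnfsf4 and Tnfsf18 did not pass. On chromosome 6, Cd27 fell, Ltbr did not pass and Tnfrsf1a rose. The pair on chromosome 4 of Tnfrsf4 and Tnfrsf18 fell together, as did Tnfrsf22, Tnfrsf23 and Tnfrsf26 on chromosome 7. Of the second cluster on chromosome 17, Tnfsf9 fell, Tnfsf14 did not pass and Cd70 was not tested. In the others, both on chromosome 4, Tnfrsf1b rose beside Tnfrsf8, and neither Tnfsf15 nor Tnfsf8 passed.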

How the data were processed

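The authors deposited 1 table of log2 values, 41345 probe sets on 12 arrays; oligo (an R package) is the tool in the submitters' processing notes. Its version, the log base and the methods of summarisation and normalization were not given in the sources used here; log2 was inferred from the range of the values. Per the labels, the total RNA came from an RNeasy extraction of what the protocol calls frozen tissue and was made into biotinylated cRNA. Array medians lay between 4.10 and 4.30, and the values were used as deposited. Of the probe sets, 23521 had 1 gene symbol in the platform annotation, 1814 had several and 16010 had none given; 2 that list a member among several symbols were left out. Where a gene had more than 1 probe set (1082 genes), the brightest was kept.

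Genes entered the test if 2 or more arrays exceeded the 30th percentile of named values, which is no measured background; 16667 did. A group-means model on all 12 arrays was fitted with limma 3.58.1 in R 4.3.3 (7 residual and 4.5 prior degrees of freedom) for 8 comparisons, with p-values adjusted by the Benjamini-Hochberg method over all genes tested and a threshold of 0.05. The fit was run on simulated data with independent normal noise, of equal spread on every array for a given gene. That run does not cover arrays that stand apart, as some do here. The number of arrays, 2 or 3 per group, limits the precision. Values on every array are given for members called with a difference of 2-fold or more and for a set of well-known members; of the signalling list, up to 8 past the threshold are named. The members and lists were chosen with earlier results of these data known. All 40 members matched RefSeq (GRCm38.p6) by gene ID, with 0 symbols changed; promoters are RefSeq's. A marker gene and a motif that were looked up are not reported here. Alternatives were the scaling, dim filter, variance model, array weights, probe-set rule, groups in the fit, replicate numbers as a block, and each array left out; those for the signalling genes were added after seeing the data. Whether the 12 arrays' replicate numbers pair samples was not settled. Deviations from group means of same-numbered samples correlated at -0.46 to 0.465 (median -0.0131 over 21 pairs). These pairs include samples of different strains, and the 2 deviations in a group of 2 arrays mirror each other. Same-numbered iNKT17 and ROR- samples correlated at 0.465 in B6 and at -0.46, -0.34 and 0.141 in BALB/c.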

Additional observations from a re-analysis of the deposited data

Results flagged for a closer look

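For 2 members, every iNKT17 array lay below every ROR- array in BALB/c and above every ROR- array in B6. How many of all genes show this pattern is not given here, so these 2 are listed as a description and not as a result about the members. Tnfsf8, CD30 ligand, lay lower in iNKT17 than in ROR- cells in BALB/c (-0.57 ± 0.19 log2 units, SE, adjusted p = 0.11) and higher in B6 (0.52 ± 0.23, adjusted p = 0.295). The limma interaction was -1.09 ± 0.30, which failed the adjustment over all genes (adjusted p = 0.562). Tnfrsf10b, the mouse TRAIL receptor, had differences of -0.19 ± 0.10 in BALB/c and 0.09 ± 0.12 in B6, an interaction of -0.28 ± 0.15 (adjusted p = 0.999). With 2 or 3 arrays a group, single arrays could not be tested as outliers.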

How the results depend on the processing

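Over the 8 comparisons 46 member calls were made, of which 21 held under all 21 alternatives (12 fits that each left out 1 array, and 9 others), 25 were lost under at least 1 and 0 reversed. In iNKT17 against ROR- cells, the mean of both strains, 15 members passed, 11 to 17 with an array left out and 14 to 17 otherwise; Tnf, Lta, Fasl, Tnfsf10, Cd27, Tnfrsf4, Tnfrsf18, Tnfrsf21, Tnfrsf22 and Tnfrsf26 passed in every fit. In BALB/c the 8 became 5 to 9 and in B6 the 9 became 3 to 10 with an array left out, and 7 to 10 and 7 to 13 otherwise. Between strains, the 1 member in iNKT17 cells became 0 to 2 with an array left out and 2 with array weights, and the 3 in ROR- cells became 0 to 4, 0 with only the groups compared in the fit and 1 with the replicate block. Between iNKT17 and gamma-delta 17 cells the 0 became 0 to 1 with an array left out and stayed 0 otherwise, and in gamma-delta 17 against ROR- cells the 10 became 3 to 11 with an array left out and 10 to 13 under the other settings. The interaction gave 0 throughout. With the replicate block the other counts were 14 (mean of both strains), 7 (BALB/c), 7 (B6), 1 (strains in iNKT17 cells) and 10 (gamma-delta 17 against ROR- cells). Whether the replicate numbers pair the samples was not settled. Fits with fewer arrays or groups have fewer degrees of freedom. Most fits with an array left out also called fewer of all genes, so a lower count is not particular to the members. Levels near the dim level limit the size of the Fasl difference. The cause of the other changes was not tested.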
